A study of Mus musculus with 8 samples.

Results

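The colony-stimulating factors are secreted signals that keep myeloid cells alive and set how many of them a tissue holds. CSF1 (M-CSF) and IL-34 are unrelated in sequence but bind the same receptor, the tyrosine kinase CSF1R, on macrophages and microglia. CSF2 (GM-CSF) binds a receptor made of a specific alpha chain (CSF2RA) and a signalling beta chain (CSF2RB) that is shared with the receptors for IL-3 and IL-5, and CSF3 (G-CSF) binds CSF3R, best known on neutrophils and their precursors. In the adult brain IL-34 is known mainly as a neuronal product and CSF1 mainly as a glial one, whereas the uterus is known as a source of CSF1 and CSF2 around the time of implantation. The 8 genes described here, Csf1, Il34, Csf1r, Csf2, Csf2ra, Csf2rb, Csf3 and Csf3r, were taken by symbol from a table of 19884 genes, in which each had 1 entry.

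RNA was measured in whole uterus and in maternal whole brain of untreated pregnant C57BL/6J mice, wild type and aged 6 to 10 weeks, on gestation day 4, with 4 libraries per organ. Pregnancy was established in the mice by blastocysts in the uterine flush. Both organs were taken whole, so every value is an average over all their cell types, and less RNA per cell cannot be told apart from fewer cells of a type. Uterus libraries held 35394603 to 40254254 counts and brain libraries held 40115616 to 47790178 counts. The organ labels were matched by markers, with 8 neuronal genes summing to 9.44 to 14.7 CPM (counts scaled to the TMM-adjusted library size) in uterus and to 6570 to 6720 CPM in brain, and 10 epithelial genes summing to 811 to 1010 CPM in uterus and to 6.80 to 10.3 CPM in brain. All 10 epithelial genes were higher in uterus, among them Cdh1 and Krt8, and all 8 neuronal genes were lower, among them Snap25 and Syt1, as were 8 genes of astrocytes and oligodendrocytes, among them Mbp and Slc1a2, which summed to 23.9 to 34.1 CPM in uterus and to 8620 to 9200 CPM in brain. Of these, 6 epithelial, 4 neuronal and 1 glial gene passed the filter on low counts through the higher organ alone. No gene of these lists had 0 counts throughout an organ.

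Csf2rb has a near copy, Csf2rb2, which encodes the beta chain that serves mouse IL-3 alone, so that mice have a pair of beta chain genes side by side. Csf2rb lies at chr15:78325752-78353847 on the plus strand and Csf2rb2 at chr15:78282507-78305721 on the minus strand of GRCm38. Their coding sequences, of 2688 and 2634 bases, matched at 92.9% of aligned columns, with 125 mismatches and 66 gap columns. The pair of lines below shows the stretch of 60 bases in which the copies differed most, where a read can be told apart, with the 13 mismatched bases in capitals. The first line is coding bases 304 to 363 of Csf2rb and the second is coding bases 307 to 366 of Csf2rb2, both from GENCODE M21 transcripts.
Csf2rb: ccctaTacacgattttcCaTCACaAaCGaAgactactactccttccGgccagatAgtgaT
Csf2rb2: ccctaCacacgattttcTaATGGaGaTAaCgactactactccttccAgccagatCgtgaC
Elsewhere the copies ran identical for up to 242 bases, and 892 of the 4851 windows of 50 bases in the Csf2rb transcript also occurred in Csf2rb2. The line below gives 120 of those identical bases, coding bases 2083 to 2202 of both genes, from which a short read cannot be placed.
Csf2rb and Csf2rb2: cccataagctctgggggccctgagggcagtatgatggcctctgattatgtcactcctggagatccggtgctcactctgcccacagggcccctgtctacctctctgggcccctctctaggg

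Il34 differed far more between the organs than Csf1, the other ligand of CSF1R. Il34, at chr8:110741829-110805924 on the minus strand, had 4.23, 4.63, 2.28 and 1.12 CPM in the 4 uterus libraries, against 44.2, 46.4, 48.2 and 44.3 CPM in the 4 brain libraries. Every uterus library was below every brain library. The brain libraries lay within a 1.09-fold range, while the uterus libraries spread over a 4.14-fold range. The log2 fold change, uterus over brain, was -3.90 ± 0.33 (SE, n = 4 per organ), which is 14.9-fold lower in uterus (edgeR quasi-likelihood test, adjusted p = 1.27e-06), and it also passed the test against a 2-fold change (adjusted p = 5.11e-06). Of the 16074 genes tested, 87% passed the test for any difference, with 43.6% of all tested lower in uterus, and 49.3% passed the 2-fold test, with 25.8% of all tested lower in uterus, so a difference between these organs was the rule among genes.

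Csf1, at chr3:107741048-107760469 on the minus strand, had 30.3, 38.0, 32.3 and 30.4 CPM in uterus, against 27.3, 22.9, 27.4 and 23.1 CPM in brain. The organs did not overlap, which held for 84.1% of all genes tested, but the lowest uterus library stood close to the highest brain library. Csf1 was 1.3-fold higher in uterus, with a log2 fold change of 0.38 ± 0.10 (SE, n = 4 per organ; edgeR adjusted p = 0.00379), a direction that 43.5% of genes tested shared, and it did not pass the 2-fold test (adjusted p = 1). With library totals in place of TMM the log2 fold change was 0.64, and the median over all genes moved to 0.27 in that scaling, against 0.01 with TMM.

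Set against each other within a library, the ligands changed places. The log2 ratio of Csf1 to Il34 counts was 2.84, 3.03, 3.81 and 4.75 in uterus, against -0.70, -1.02, -0.82 and -0.94 in brain. The means of 3.61 ± 0.87 in uterus and -0.87 ± 0.14 in brain (SD, n = 4 each) differed by 4.48, and the exact two-sided permutation test gave p = 0.0286, the smallest that 4 against 4 libraries allow. Each ligand alone separated the organs fully and in opposite directions, so this p followed from those values and adds no separate support. All 4 uterus libraries held more Csf1 than Il34, and all 4 brain libraries held more Il34 than Csf1.

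Counts per kilobase of merged exons allow levels to be set side by side between genes. Such an order holds only as far as the merged exons match the transcripts present. On this scale Csf1 stood at 6.20 ± 0.69 CPM per kb in uterus and 4.76 ± 0.48 in brain, and Il34 at 1.57 ± 0.85 in uterus and 23.4 ± 0.98 in brain (SD, n = 4 each). Il34 made up 27.4, 24.7, 16 and 9.03% of the summed ligand level in the uterus libraries, against 81.4, 84.5, 82.6 and 83.8% in the brain libraries. The share was thus even among brains and uneven among uteri, where library 4 held the lowest.

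**Figure D1:**
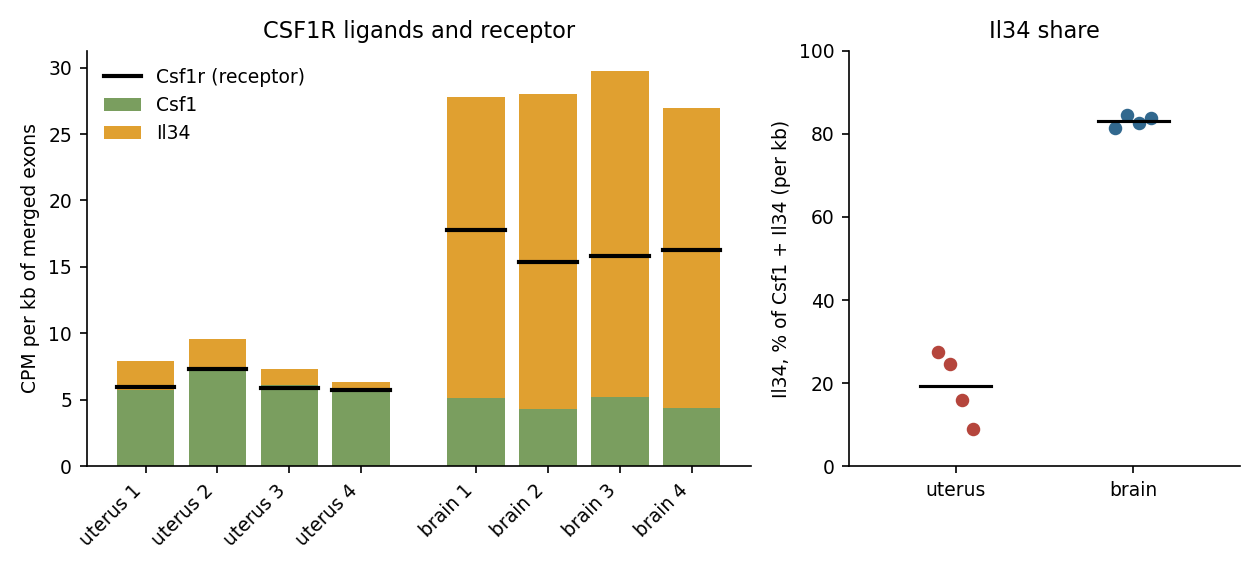
Left, level of Csf1 and Il34 stacked, with Csf1r as a black line, in CPM per kb of merged exons for each uterus and brain library; right, Il34 as a percentage of the summed Csf1 and Il34 level, with 1 point per library and a line at the organ's mean. The uterus libraries lie between 9.03 and 27.4% and the brain libraries between 81.4 and 84.5%.

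The unevenness of Il34 in uterus was measured against genes of a like level. The SD of log2 CPM among the uterus libraries was 0.91 for Il34, above that of 96.4% of the 1748 genes tested whose uterine mean was within 2-fold of its own, and their median SD was 0.27. In brain the SD of Il34 was 0.06, above that of 32.6% of 5172 such genes. Uterus library 4, lowest for Il34, was the highest of the uterus libraries for the summed epithelial markers (1010 CPM, against 811 to 869 CPM in the others) and for the summed neuronal markers (14.7 CPM, against 9.44 to 10.4 CPM in the others). The part of these in the spread of Il34 was not tested. Without uterus library 4 the log2 fold change was -3.60.

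Csf1r, the shared receptor at chr18:61100598-61132149 on the plus strand, had 34.5, 42.1, 34.1 and 32.9 CPM in uterus, against 102.8, 89.1, 91.1 and 94.3 CPM in brain. All uterus libraries were below all brain libraries, by a gap larger than the range within either organ. Csf1r was 2.63-fold lower in uterus, with a log2 fold change of -1.39 ± 0.08 (SE, n = 4 per organ; edgeR adjusted p = 8.37e-08). It passed the 2-fold test (adjusted p = 0.00022), although not with library totals as the scaling (log2 fold change -1.13, adjusted p = 0.0528). Of the 5774 exon bases of Csf1r, 873 overlap Hmgxb3 on the other strand. The strand setting of the counting is not given in the sources used here, so reads in that overlap may have come from either gene. Hmgxb3 was itself lower in uterus, at 28.2 ± 1.71 CPM, than in brain, at 45.6 ± 1.88 CPM (SD, n = 4 each), with a log2 fold change of -0.69 ± 0.06 (SE).

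Together, Csf1 and Il34 exceeded Csf1r per kilobase in every library. The ratio of the summed ligands to the receptor was 1.32, 1.31, 1.23 and 1.11 in uterus, against 1.56, 1.81, 1.89 and 1.65 in brain, with no overlap. In uterus, Csf1r at 6.22 ± 0.72 CPM per kb and Csf1 at 6.20 ± 0.69 did not differ beyond their spread, while in brain Csf1r stood at 16.3 ± 1.05, above Csf1 and below Il34 (SD, n = 4 each).

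Most general macrophage markers went the other way from the receptor, but only a minority of them by the 2-fold test. Of 16 genes shared by macrophages and microglia, 11 were higher in uterus, 2 were lower and 3 did not pass, with a median log2 fold change of 0.82 against 0.01 over all genes tested. Among all genes tested, 43.5% were higher in uterus and 43.6% lower. At the 2-fold test 5 of the 16 were higher and 1 was lower, against 23.5% and 25.8% of all genes tested. The summed level of the 16 was 617 to 732 CPM in uterus and 306 to 437 CPM in brain, and none of them had 0 counts throughout an organ. Lyz2, which encodes lysozyme of myeloid cells, averaged 185.1 ± 27.4 CPM in uterus and 13.2 ± 4.35 CPM in brain (SD, n = 4 each), a log2 fold change of 3.82 ± 0.22 (SE). Ptprc, which encodes CD45 of all leukocytes, averaged 72.1 ± 5.67 CPM in uterus and 7.0 ± 2.99 CPM in brain, a log2 fold change of 3.37 ± 0.24. Cx3cr1, the fractalkine receptor of microglia and some monocytes, fell furthest of the list, with 14.6, 16.9, 13.6 and 14.1 CPM in uterus, against 44.2, 36.7, 33.6 and 39.2 CPM in brain. Its log2 fold change of -1.38 ± 0.10 lay beside the -1.39 of Csf1r.

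The level of Csf1r relative to these 16 markers separated the organs more widely than Csf1r alone. Log2 CPM of Csf1r minus the mean of the markers was 0.18, 0.43, 0.18 and 0.29 in uterus, against 2.57, 2.96, 2.96 and 2.99 in brain. The difference of -2.60 between the means had an exact two-sided permutation p = 0.0286, the smallest possible with 4 against 4. Csf1r and the summed markers each separated the organs fully and in opposite directions, so this p adds no separate support. The full separation of the sums rests on Lyz2 and Ptprc. Lyz2 had 147.1 to 212.4 CPM in uterus and 10.15 to 19.49 CPM in brain, and Ptprc had 63.7 to 75.8 CPM in uterus and 4.57 to 11.4 CPM in brain. In brain library 1 the level of Csf1r relative to the markers was the lowest of the brain libraries. The markers themselves were highest there, at 437 CPM against 306 to 315 CPM in the other brain libraries. Without that library the difference was -2.70.

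**Figure D2:**
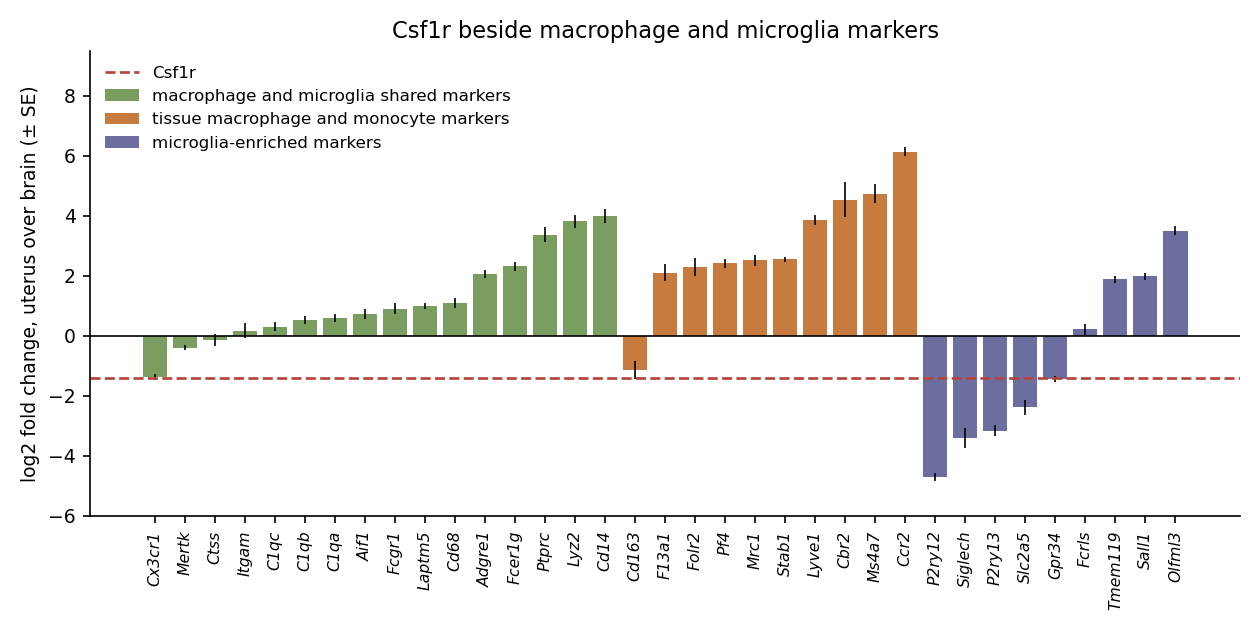
Log2 fold change, uterus over brain, of the tested genes reported here from 3 marker lists, as bars with SE, ordered within a list; the dashed line is Csf1r at -1.39. Cx3cr1 and Gpr34 end near the line, most shared and tissue macrophage markers lie above 0, and P2ry12 reaches -4.69.

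Markers of the subtypes of these cells split by list. Of 10 microglia-enriched genes, 6 were lower in uterus, 3 were higher and 1 did not pass, with a median log2 fold change of -1.3. Among all genes tested, 43.6% were lower and 43.5% higher, so these counts alone say little about the list. P2ry12, an ADP receptor of microglia, averaged 1.31 ± 0.27 CPM in uterus and 33.9 ± 1.55 CPM in brain (SD, n = 4 each), a log2 fold change of -4.69 ± 0.13 (SE). The 3 that were higher in uterus were Olfml3, a secreted matrix protein, Sall1, a zinc finger factor also needed for kidney development, and Tmem119, also known from osteoblasts. Olfml3 had the largest change of them, at 223.1 ± 23.2 CPM in uterus and 19.7 ± 4.16 CPM in brain, and these 3 made the summed level of the list higher in uterus (463 to 500 CPM) than in brain (219 to 264 CPM).

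Of 10 tissue macrophage and monocyte genes, 9 were higher in uterus and Cd163 was lower, with a median log2 fold change of 2.54. Among all genes tested, 43.5% were higher in uterus and 43.6% lower. Of the 10 genes, 2 passed the filter on low counts through the uterus libraries alone. The sum of the 10 was 316 to 359 CPM in uterus and 39.4 to 52.5 CPM in brain. Ccr2, the chemokine receptor of blood-derived monocytes, averaged 58.9 ± 4.99 CPM in uterus and 0.839 ± 0.234 CPM in brain, a log2 fold change of 6.13 ± 0.15 (SE, n = 4 per organ). Stab1, a scavenger receptor also made by endothelium, averaged 133.3 ± 14.5 CPM in uterus and 22.8 ± 1.74 CPM in brain. Cd163, the haemoglobin scavenger receptor, averaged 1.80 ± 0.82 CPM in uterus and 4.00 ± 0.43 CPM in brain, a log2 fold change of -1.15 ± 0.30. What part the make-up of the myeloid cells has in the Csf1r difference was not tested.

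The list of CSF1R partners and signalling proteins held the other proteins that bind IL-34 and the first steps after the receptor. Of 18 genes, 12 were higher in uterus, 3 were lower and 3 did not pass, with a median log2 fold change of 1.26. The shares over all genes tested were 43.5% higher and 43.6% lower. Ptprz1, a receptor phosphatase of glia and neural progenitors that binds IL-34, had 10.4, 9.13, 7.56 and 15.6 CPM in uterus, against 371, 355.7, 326.6 and 392.8 CPM in brain, a log2 fold change of -5.08 ± 0.21. Sdc1, the epithelial proteoglycan syndecan-1 that also binds IL-34, had 119.7, 103.9, 130.2 and 101.8 CPM in uterus, against 3.10, 3.14, 3.19 and 3.74 CPM in brain, a log2 fold change of 5.11 ± 0.11. The alternative IL-34 binding proteins thus differed in opposite directions, each with no overlap between the organs, which held for 84.1% of all genes tested.

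Among the signalling genes, the adaptor gene Grb2 and the exchange factor gene Sos1, which act downstream of many receptors, were lower in uterus, with log2 fold changes of -1.14 ± 0.06 and -0.94 ± 0.05 (SE). Pik3r1, a regulatory subunit of PI3 kinase, was higher, at 233.2 ± 34.7 CPM in uterus and 171.5 ± 5.75 CPM in brain. Besides Sdc1 and Pik3r1, the genes called higher ran from 0.95 for Inpp5d, a lipid phosphatase gene, to 4.06 for Fgr, a Src family kinase gene, on the log2 scale. Fgr passed the filter on low counts through the uterus libraries alone. Pik3cd, a PI3 kinase catalytic subunit of leukocytes, averaged 31.4 ± 1.31 CPM in uterus and 31.0 ± 1.93 CPM in brain and did not pass (edgeR adjusted p = 0.795), nor did the ubiquitin ligase gene Cbl (adjusted p = 0.321). The summed level of the list was 775 to 866 CPM in uterus and 969 to 1070 CPM in brain, with Ptprz1 among the largest parts of the brain sum. Tyrobp, the adaptor DAP12, averaged 27.1 ± 3.66 CPM in uterus and 12.5 ± 0.47 CPM in brain. Its microglial partner Trem2 averaged 7.83 ± 1.27 CPM in uterus and 9.08 ± 1.33 CPM in brain, and did not pass (edgeR adjusted p = 0.208).

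Csf2 was near the limit of detection in both organs. At chr11:54247271-54249667 on the minus strand, it had 7, 4, 6 and 5 counts in uterus, against 0, 0, 2 and 0 counts in brain. Every uterus library held at least 4 counts, and 3 of the 4 brain libraries held none, which allows up to 0.0692 to 0.0810 CPM in a single brain library. The uterus libraries stood at 0.0941 to 0.176 CPM. Csf2 was below the filter on low counts and was not among the 16074 genes tested. The summed counts, 22 in uterus and 2 in brain, gave a ratio of 11.1 after scaling by library size, with an exact Poisson 95% interval of 2.73 to 97.3 that covers counting error only. In a fit of 18990 genes with no filter the log2 fold change of Csf2 was 3.20 (edgeR adjusted p = 0.00714). Both brain counts came from library 3. Without it the ratio was 5.47, taken against a limit of 3 counts over the brain libraries together. That ratio makes no allowance for counting error in uterus, so it is not a lower bound. The gene overlaps the antisense model Gm12223 over 96 of its 800 exon bases.

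The alpha and beta chains of the CSF2 receptor were unlike in their difference between the organs. Csf2ra, at chr19:61223957-61228429 on the minus strand, had 39.9, 41.0, 41.8 and 35.4 CPM in uterus, against 26.8, 30.7, 30.1 and 32.7 CPM in brain. It was 1.31-fold higher in uterus, with a log2 fold change of 0.39 ± 0.08 (SE, n = 4 per organ; edgeR adjusted p = 0.000719), and did not pass the 2-fold test (adjusted p = 1). The organs did not overlap, although the lowest uterus value stood close to the highest brain value, both in library 4. With library totals as the scaling the log2 fold change was 0.65, where the median over all genes stood at 0.27.

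Csf2rb had 41.1, 36.9, 49.5 and 53.4 CPM in uterus, against 2.73, 1.82, 1.09 and 1.68 CPM in brain. It was 24.9-fold higher in uterus, with a log2 fold change of 4.64 ± 0.24 (SE, n = 4 per organ; edgeR adjusted p = 2.11e-08; 2-fold test adjusted p = 6.22e-08). Of all genes tested, 23.5% passed the 2-fold test as higher in uterus. Csf2rb2 had 38.0, 29.6, 46.2 and 39.3 CPM in uterus, against 1.46, 0.830, 0.693 and 0.970 CPM in brain, and was 39.1-fold higher in uterus (log2 fold change 5.29 ± 0.22, edgeR adjusted p = 4.52e-09). Both copies were thus well above brain in every uterus library, and the highest brain value of each was in library 1. That library also had the highest Ptprc of the brains, at 11.4 CPM against 4.57 to 6.03 CPM in the other brain libraries. Without it the log2 fold changes were 4.90 for Csf2rb and 5.53 for Csf2rb2.

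How reads from the identical stretches were divided between the copies is not given in the sources used here, so each copy's own level is uncertain. With the counts of the copies summed, the log2 fold change was 4.90 (edgeR adjusted p = 9.62e-09). Per kilobase, the ratio of Csf2rb2 to Csf2rb was 1.42, 1.23, 1.43 and 1.13 in uterus, against 0.821, 0.700, 0.980 and 0.887 in brain. In CPM, Csf2rb was the higher copy in every library of both organs, so the order per kilobase in uterus rests on the lengths used. These were 7277 merged exon bases for Csf2rb, whose transcript has 4900, and 4740 for Csf2rb2, whose transcript has 4740. Which copy was the more abundant in uterus is therefore not settled.

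The balance between the chains followed from these values. Csf2ra exceeded Csf2rb per kilobase by 2.46, 2.82, 2.14 and 1.68 times in uterus, against 24.9, 42.8, 70.3 and 49.4 times in brain. The ratio in brain rests on 298 Csf2rb counts in all. Against both copies together, Csf2ra stood at 1.02, 1.26, 0.876 and 0.786 times their level in uterus, against 13.7, 25.2, 35.6 and 26.1 times in brain. The alpha chain was thus the more abundant in every brain library by either measure. In uterus it exceeded Csf2rb alone in every library, but both copies together only in libraries 1 and 2. These levels rest on merged exons of 7277 bases for Csf2rb and 2871 for Csf2ra. Their transcripts with the longest coding part have 4900 and 1849 bases, so the uterine ratios near 1 do not settle a rank.

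The promoters of the alpha chain and of the Csf2rb copy are shown because these genes differed so unequally between the organs. RefSeq promoters of GRCm38.p6, from 250 bases before to 50 after the start of the gene, were at hand for 5 of the 9 genes, namely Csf1, Csf2, Csf2ra, Csf3r and Csf2rb2. The RefSeq start is that of the GENCODE gene for Csf1 and Csf2rb2, lies 11 bases inside it for Csf2ra and 109 bases inside it for Csf3r, and lies 232 bases upstream of it for Csf2, so that the Csf2 window does not reach the gene as placed above. They were searched on both strands for 6 motifs, and capitals mark a match. The PU.1 motif was spelled GAGGAAGT and was held by 3.2% of the 32851 promoters in the RefSeq set. The ETS core, which lies within the PU.1 motif, was spelled GGAAGT and was held by 23.8% of them. The C/EBP motif was spelled TTGCNNAA and was held by 10.8% of them. The AP-1 motif was spelled TGANTCA and was held by 7.81% of them. The RUNX motif was spelled TGTGGT and was held by 16.8%, and the TATA motif was spelled TATAAA and was held by 13.6%. The Csf2rb2 promoter is chr15:78305672-78305971 and the Csf2ra promoter is chr19:61228369-61228668, both printed on the gene's strand, the minus strand.
Csf2rb2: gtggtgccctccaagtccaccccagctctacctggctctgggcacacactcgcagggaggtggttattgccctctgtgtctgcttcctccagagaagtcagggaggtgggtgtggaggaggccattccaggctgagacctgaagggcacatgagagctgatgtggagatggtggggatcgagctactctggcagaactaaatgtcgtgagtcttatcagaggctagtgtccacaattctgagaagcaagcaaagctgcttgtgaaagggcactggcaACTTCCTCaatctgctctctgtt
Csf2ra: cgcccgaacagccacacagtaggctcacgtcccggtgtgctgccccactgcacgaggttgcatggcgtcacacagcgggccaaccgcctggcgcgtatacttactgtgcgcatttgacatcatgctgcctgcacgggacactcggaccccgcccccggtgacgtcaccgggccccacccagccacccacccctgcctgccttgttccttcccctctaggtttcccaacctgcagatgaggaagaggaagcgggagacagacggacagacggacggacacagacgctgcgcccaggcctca
The Csf2rb2 window held the PU.1 motif once, and the ETS core within it, on the other strand and with its first base 28 bases after the start. The Csf2ra, Csf1 and Csf3r windows held none of the motifs, and the Csf2 window held 1 C/EBP match. These matches describe letters and not bound sites.

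The beta common family and its JAK-STAT signalling genes were mostly higher in uterus. Of 19 listed genes, 16 were tested, and 13 were higher in uterus, 2 were lower and 1 did not pass, with a median log2 fold change of 1.64. The shares over all genes tested were 43.5% higher and 43.6% lower. The ligands that share the beta chain were scarce, with Il3 at 0 counts in uterus and 2 in brain, and Il5 at 23 counts in uterus and 14 in brain. Il3ra, the IL-3 alpha chain, averaged 11.2 ± 1.71 CPM in uterus and 1.40 ± 0.20 CPM in brain (SD, n = 4 each), a log2 fold change of 3.0 ± 0.16 (SE). Il5ra, the IL-5 alpha chain, had 42 counts in uterus and 1 in brain and was not tested.

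Jak1, a kinase used by many cytokine receptors, averaged 440.9 ± 20.4 CPM in uterus and 218.4 ± 7.19 CPM in brain, a log2 fold change of 1.01 ± 0.05. Stat3, the main factor activated by CSF3R, averaged 280.5 ± 21.8 CPM in uterus and 66.1 ± 2.36 CPM in brain, a log2 fold change of 2.09 ± 0.06. Stat5a had 23.2, 32.3, 22.4 and 50 CPM in uterus, against 3.67, 3.21, 2.61 and 2.74 CPM in brain, while its paralog Stat5b did not pass (60.5 ± 6.04 CPM in uterus and 55.0 ± 2.45 CPM in brain, edgeR adjusted p = 0.102). The feedback inhibitors Cish, Socs1, Socs2 and Socs3 were all higher in uterus, by 1.53 for Socs2 to 3.91 for Socs3 on the log2 scale. Bcl2l1, a survival gene, was lower in uterus, at 56.4 ± 3.83 CPM, than in brain, at 96.5 ± 4.24 CPM, and the phosphatase gene Ptpn11 was lower as well.

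Csf3 was the most variable of the members in uterus. At chr11:98701263-98703629 on the plus strand, it had 71, 68, 24 and 284 counts in uterus, against 4, 4, 11 and 2 counts in brain. That is 1.79, 1.6, 0.609 and 6.62 CPM in uterus and 0.108, 0.0923, 0.254 and 0.0473 CPM in brain. Each uterus library exceeded each brain library, but uterus library 4 held more counts than the other 3 uterus libraries together. Csf3 was 20.6-fold higher in uterus (95% interval 6.67 to 63.7), with a log2 fold change of 4.37 ± 0.83 (SE, n = 4 per organ; edgeR adjusted p = 0.000581; 2-fold test adjusted p = 0.00177). The interval applies a normal approximation to the SE and is likely too narrow with 4 libraries per organ. It passed the filter on low counts through the uterus libraries alone.

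Without uterus library 4 the log2 fold change of Csf3 was 3.39, and without brain library 3 it was 4.98. The SD of log2 CPM among uteri was 1.34, above that of 98.9% of the 1654 genes tested with a uterine mean within 2-fold of its own. In uterus library 4 the summed neutrophil markers were also the highest of the uteri, at 25.2 CPM against 12.6 to 18.5 CPM, as were the epithelial markers. Without Ltf, which uterine epithelium also makes, the neutrophil sum was 13.5 CPM there and 7.24 to 10.3 CPM in the other uteri. Their part in the Csf3 value was not tested.

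**Figure D3:**
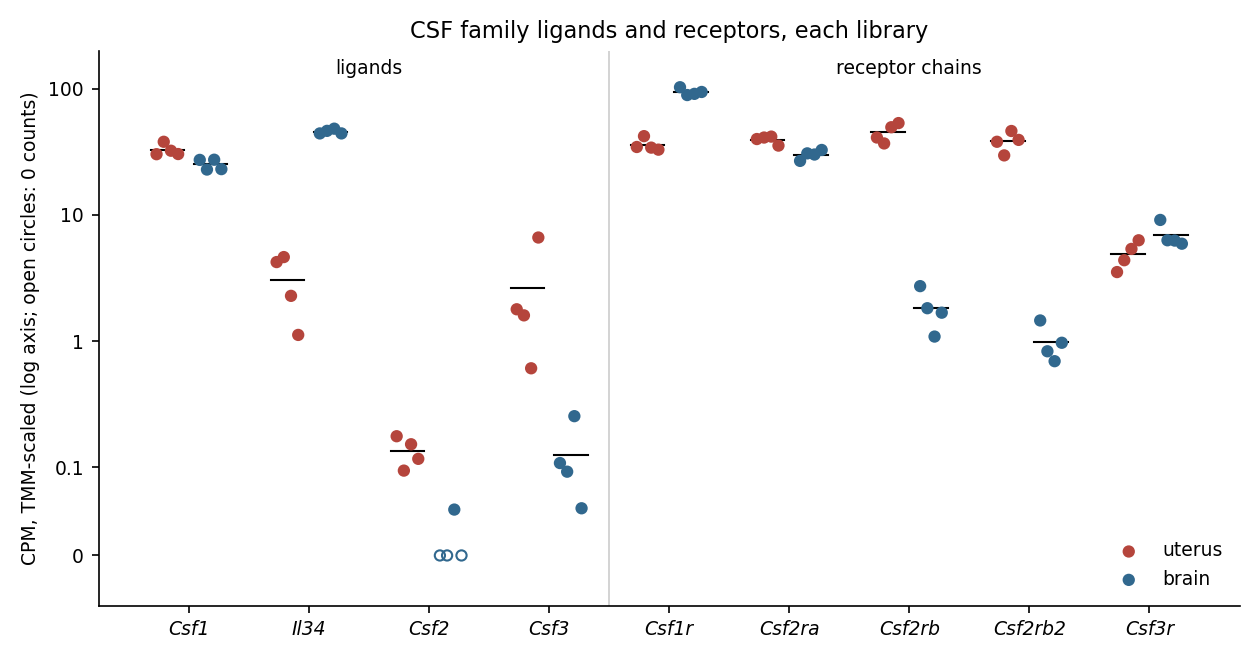
CPM of each gene on a log axis, with 1 point per library, uterus left of brain and lines at the means; open circles mark 0 counts, and no mean is drawn for an organ with a library at 0. The organs overlap for Csf3r alone, Il34 and Csf1r are lower in uterus, and Csf2rb, Csf2rb2 and Csf3 are higher.

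Csf3r, at chr4:126024550-126044440 on the plus strand, had 3.52, 4.37, 5.38 and 6.29 CPM in uterus, against 9.12, 6.30, 6.26 and 5.91 CPM in brain. The organs overlapped, with uterus library 4 above brain libraries 3 and 4. The log2 fold change was -0.49 ± 0.21 (SE, n = 4 per organ; edgeR adjusted p = 0.0454), at the edge of the threshold. The call was lost under 10 of 18 alternatives, among them library totals (log2 fold change -0.24, adjusted p = 0.295), the fit without brain library 1 (-0.32, adjusted p = 0.155) and the fit without uterus library 1 (-0.35, adjusted p = 0.127). It was also lost without brain library 2 or 3 (adjusted p = 0.0615 and 0.0602) and without uterus library 2 or 3 (adjusted p = 0.0987 and 0.0542). The values therefore do not settle a direction for Csf3r. Of 3432 windows of 50 bases in its transcript, 11.5% also occurred in another gene, mostly in the gene model AC105061.2.

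Neutrophil markers were scarce and divided. Of 12 genes, 7 were tested, and Retnlg and Mpo were higher in uterus, Ngp was lower and 4 did not pass. The shares over all genes tested were 43.5% higher and 43.6% lower. Retnlg and Mpo passed the filter on low counts through the uterus libraries alone and Ngp through the brain libraries alone. With a filter of 1 CPM in 4 libraries, 1 gene was higher and 0 were lower. The sum was 12.6 to 25.2 CPM in uterus and 4.55 to 16.5 CPM in brain. Ltf, the lactoferrin gene, which uterine epithelium also makes under oestrogen, held 11.7 CPM of the sum in uterus library 4, and without it the sum was 7.24 to 13.5 CPM in uterus and 4.3 to 15.6 CPM in brain. Retnlg, a granulocyte resistin-like gene, averaged 4.01 ± 0.87 CPM in uterus and 0.165 ± 0.148 CPM in brain, and Mpo, the myeloperoxidase gene, averaged 0.685 ± 0.298 CPM in uterus and 0.0792 ± 0.0532 CPM in brain (SD, n = 4 each). Ngp, a granule protein gene, averaged 0.0494 ± 0.0712 CPM in uterus and 0.876 ± 0.665 CPM in brain. Ly6g, the gene of a defining surface marker, had 28 counts in uterus and 3 in brain. S100a8, a calgranulin gene, was highest in brain library 1 at 4.37 CPM, against 0.970 to 2.05 CPM in the other brain libraries, and Csf3r was highest in that library as well. The part of these cells in the Csf3r values was not tested.

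**Figure D4:**
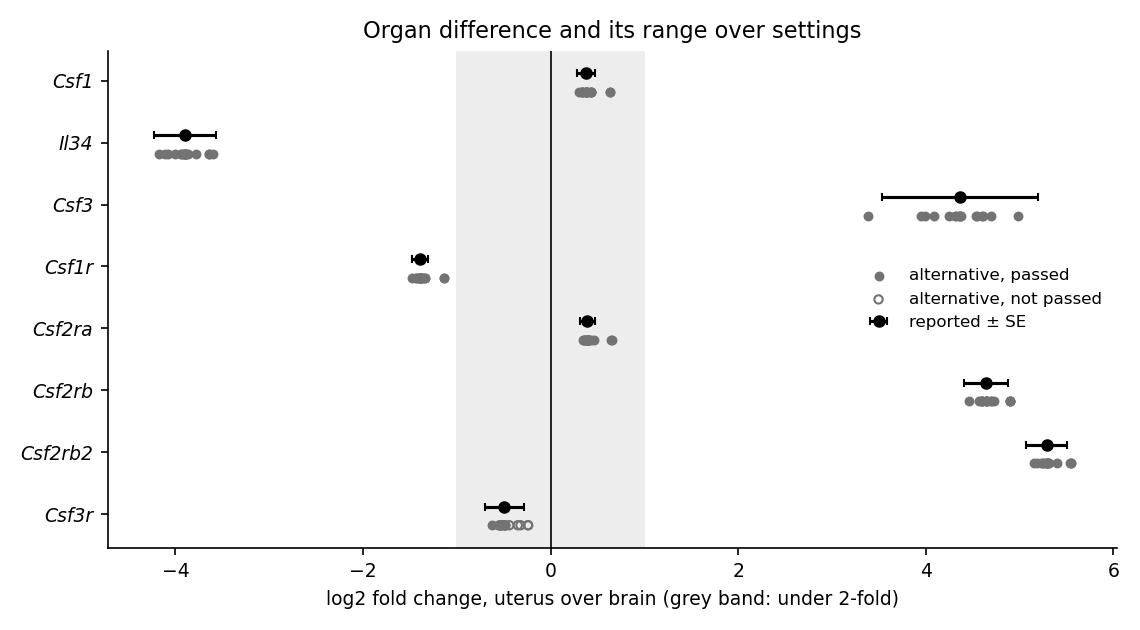
Log2 fold change, uterus over brain, of each tested gene with its SE (black), and below it the value under each alternative (grey, open where the test was not passed); the grey band marks changes under 2-fold. Il34 and Csf1r lie left of the band, Csf3, Csf2rb and Csf2rb2 right of it, and Csf3r is the gene whose alternatives include open points.

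Transcription factors of myeloid cells, among them PU.1, a known regulator of Csf1r, were mostly higher in uterus. Of 14 genes, 13 were tested, and 10 were higher in uterus, 2 were lower and 1 did not pass, with a median log2 fold change of 2.11. Among all genes tested, 43.5% were higher in uterus and 43.6% lower. Of the 13, 1 passed the filter on low counts through the uterus libraries alone. The summed level of the list went the other way, at 424 to 466 CPM in uterus and 536 to 586 CPM in brain, where Mef2c held most of it. Spi1, which encodes PU.1, had 7.35, 6.61, 5.99 and 5.39 CPM in uterus, against 3.48, 2.58, 2.36 and 2.18 CPM in brain, a log2 fold change of 1.26 ± 0.18 (SE) in the direction opposite to Csf1r. Irf8, a partner of PU.1, averaged 30.7 ± 4.59 CPM in uterus and 5.18 ± 0.63 CPM in brain (SD, n = 4 each). Maf, a factor of macrophages and of several other tissues, averaged 84.5 ± 15.1 CPM in uterus and 32.9 ± 1.90 CPM in brain. Mef2c, also a neuronal and muscle factor, averaged 58.0 ± 5.21 CPM in uterus and 420.4 ± 17.3 CPM in brain. Cebpe, a granulocyte factor, had 59 counts in uterus and 2 in brain and was not tested.

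Dendritic cell markers belong to a lineage known to depend on the FLT3 ligand and in part on CSF2. Those called higher in uterus were mainly genes that passed the filter on low counts through uterus alone. Of 8 genes, 7 were tested, and 5 were higher in uterus, 1 was lower and 1 did not pass, with a median log2 fold change of 4.01. The shares over all genes tested were 43.5% higher and 43.6% lower. Of the 7, 4 passed the filter on low counts through the uterus libraries alone, Itgax and Clec9a among them, and all 4 were called higher. Of the others tested, 1 was higher, 1 was lower and 1 did not pass. The summed level of the list overlapped, at 50.4 to 76 CPM in uterus and 55.2 to 60 CPM in brain. Itgax, which encodes CD11c, averaged 14.9 ± 2.94 CPM in uterus and 0.338 ± 0.106 CPM in brain, and Clec9a, of cross-presenting cells, averaged 7.76 ± 1.37 CPM in uterus and 0.363 ± 0.0875 CPM in brain (SD, n = 4 each). Flt3 was the gene that was lower, at 4.28 ± 1.53 CPM in uterus and 25.7 ± 0.88 CPM in brain.

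Ordered per kilobase, the members formed different ladders in the organs. The ranks rest on merged exon lengths, such as 7277 bases for Csf2rb, whose transcript has 4900, so close ranks are not settled. In uterus Csf2ra led at 13.8 ± 0.99 CPM per kb, followed by Csf1r, Csf2rb and Csf1 at 6.20 to 6.22, which did not differ beyond their spread, then Csf3 (1.88 ± 1.91), Il34 (1.57 ± 0.85) and Csf3r (1.36 ± 0.33), which did not either, and Csf2 last. In brain Il34 led at 23.4 ± 0.98, followed by Csf1r at 16.3 ± 1.05, Csf2ra at 10.5 ± 0.86, Csf1 at 4.76 ± 0.48, Csf3r at 1.91 ± 0.41, Csf2rb at 0.251 ± 0.093 and Csf3 at 0.0888 ± 0.0634, with Csf2 last (SD, n = 4 each). Neighbours in brain were apart by more than their spread down to Csf3r and Csf2rb, while Csf2rb and Csf3 stood close to each other at few counts.

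Genes with the most similar pattern were sought by the root mean square difference of log2 CPM over the 8 libraries, after centring each gene, for the 5 members at 10 CPM or more in an organ. For Csf1r the nearest was Cx3cr1 (0.07), followed by Gpsm1 and Tox3 (0.07 each), and Cx3cr1 averaged 14.8 CPM in uterus and 38.4 CPM in brain. For Il34 they were Ttc21a, Fstl4 and Car4 (0.28 to 0.30). For Csf2rb they were Fam60a, Foxl2 and Elf4 (0.19 to 0.23), for Csf1 they were Fam161a, Ehhadh and Rprd1b (0.04 to 0.06), and for Csf2ra they were Zfp579, Ddx49 and Ehd1 (0.04 to 0.05). With 2 organs the difference between their means sets most of this likeness, and neighbours of small changes such as Csf1 are chosen from many genes with small changes.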

How the data were processed

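Total RNA of whole uterus and whole brain was sequenced after removal of ribosomal RNA with a stranded kit, per the labels' protocols. The authors used FastQC, HISAT2 2.0.3, featureCounts and edgeR on GRCm38.p5, per the submitters' processing notes. The annotation, its strand setting and the rule for reads with several matches were not given in the sources used here. Each deposited value is an unnormalized whole-number count.

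Fits were run under R 4.3.3 with edgeR 4.0.16, and alternatives with DESeq2 1.42.0 or limma 3.58.1, and sequences were handled with Biopython 1.88 under Python 3.11.15. Genes with low counts were removed by filterByExpr by organ, which left 16074 of 19884 genes and 7 of the 8 members. The organs were compared with TMM scaling by edgeR's quasi-likelihood F test, two-sided, at a Benjamini-Hochberg adjusted p of 0.05 over all genes tested, and by glmTreat against a 2-fold change. SE was taken from each log2 fold change and the root of its F value. Ratios within a library (pseudocount of 0.5 counts, or prior count of 0.5 for log2 CPM) were tested by exact permutation over 70 splits. A total of 3 counts was the limit that a count of 0 allows, and such limits and Poisson intervals cover counting error only, since reads with no molecular identifier can repeat a molecule. Exon lengths and coordinates came from GENCODE M21 (GRCm38), which held 19774 of the identifiers. Itgam had 2 entries, of which the one matching GENCODE was used.

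All members were named, and 2 genes of the lists are counted but not reported here by name. From each list the naming rule took the 2 called genes with the highest mean in the majority direction and the called gene that went furthest against it, and for each member at 10 CPM or more the 3 genes with the nearest pattern, leaving out unnamed gene models. Other list genes are named where a count or a role needed them and were chosen after their values were seen. The members and lists were chosen with earlier results of these data known. No term for animal was fitted, because whether libraries with the same number came from 1 mouse is not stated. Scripts were tested on simulated data with known changes. Alternatives were other scalings and filters, a replicate block, DESeq2, limma-voom, a threshold of 0.01, summed copies and leaving out each library.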

Additional observations from a re-analysis of the deposited data

Results flagged for a closer look

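In brain, library 1 stood apart for Csf3r at 9.12 CPM, with the nearest of the other brain libraries at 6.30 CPM, a gap of 0.881 of the whole range among the 4 libraries. The same library held the highest S100a8, Ptprc and Csf2rb values of the brains, and the part of leukocyte content in its Csf3r value was not tested. Csf2 in brain library 3 stood apart at 0.0462 CPM, which is 2 counts, against 0 in the other 3 brain libraries. In all, 16 groups of 4 libraries were examined for such gaps, and chance marks about 1 in 20 groups. That rate does not apply to Csf2 in brain, where any lone library above 0 makes the gap the whole range.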

How the results depend on the processing

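No direction of a member reversed under any alternative run, and the calls of Csf1, Il34, Csf1r, Csf2ra, Csf2rb and Csf3 held in every alternative in which they were tested. Csf3 was not tested with a filter of 1 CPM in 4 libraries. The Csf3r call was lost with upper-quartile scaling (log2 fold change -0.24, adjusted p = 0.288), with library totals, with a threshold of 0.01 and without any 1 of brain libraries 1 to 3 and uterus libraries 1 to 3. Whether libraries with 1 number came from 1 mouse is not stated in the labels, and deviations of same-numbered libraries correlated at -0.02 to 0.05. With a replicate block 6898 genes were higher and 6948 lower in uterus, against 6988 and 7001 without it. Of the member calls the block ended that of Csf3r alone (-0.50, adjusted p = 0.0868), and Csf3 stood at 3.95 (adjusted p = 0.00235). The median log2 fold change over all genes stood at 0.27 with upper-quartile scaling and with library totals. Relative to the median, Csf3r was at -0.51 under each of these and under TMM, and Csf1 at 0.37. With upper-quartile scaling or library totals 1 gene, in place of 2, was lower in uterus among the shared macrophage markers and among the myeloid factors. Among neutrophil markers, 3 in place of 1 were lower with DESeq2 or without uterus library 4, and with a filter of 1 CPM in 4 libraries 0 were lower and 1 in place of 2 was higher. Across fits that left out 1 library, the Csf1 to Il34 difference ran from 4.10 to 4.73 and that of Csf1r relative to its markers from -2.70 to -2.56. Counts under 30 in an organ, as for Csf2 and for Csf3 in brain, leave wide intervals.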
